A study of Mus musculus with 96 samples.

Results

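The glycolytic enzymes described here are 10 genes, 1 for each step from glucose to pyruvate: Hk2, Gpi1, Pfkl, Aldoa, Tpi1, Gapdh, Pgk1, Pgam1, Eno1 and Pkm2. They were taken by symbol from a table of 23955 genes, and all 10 were present. Pkm2 has no row under that older symbol and is listed as Pkm, its current symbol. They were examined in 96 single cells, 48 from each of 2 moribund mice with acute myeloid leukaemia. Both mice had the genotype Flt3ITD/ITD;Dnmt3afl/- MxCre: an internal tandem duplication in both copies of the receptor kinase gene Flt3, and 1 floxed and 1 deleted copy of the DNA methyltransferase gene Dnmt3a, with Cre driven by the interferon-inducible Mx promoter. Spleen cells were enriched on beads against CD117 (c-Kit), caught one by one on a microfluidic chip, and made into libraries from 125 pg of cDNA each. The age of the mice and the treatment that induced Cre are not given in the sources used here, and the control genotype was not analysed here. The cells of each mouse carry their own column prefix, whose meaning is not given in the sources used here. Mouse and prefix therefore cannot be told apart, and with 1 mouse on each side no comparison has a replicate check or a p-value.

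Glycolysis splits 1 glucose into pyruvate in the cytosol and yields ATP and NADH without oxygen; lactate dehydrogenase then turns pyruvate into lactate and returns NAD+. Hexokinase, phosphofructokinase and pyruvate kinase catalyse the steps that are practically irreversible in the cell, and the rest run close to equilibrium. Many of the enzymes exist as isozymes from separate genes, of which tissues use different ones. Neutrophils have few mitochondria and are known to rely on glycolysis, and dividing cells draw on its intermediates for nucleotides, serine and lipids.

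A cell entered a state when its marker reached 1000 TPM (a level corrected for transcript length and scaled to the same sum in every cell). H2-Aa, an MHC class II chain, marked the class II-high cells (14 in mouse 1 and 19 in mouse 2). Mpo, the myeloperoxidase of early granules, marked the Mpo-high cells (13 and 12). S100a8, a calcium-binding protein abundant in neutrophils, marked the S100a8-high cells (0 and 8). The rest numbered 20 and 6, and 4 cells passed more than 1 marker and were left out of the state comparisons. The lowest H2-Aa level inside its group was 6732 TPM and the highest outside 115 TPM; for S100a8 these were 1251 and 133 TPM. For Mpo they were 1033 and 999 TPM, with 10 cells between 500 and 2000 TPM, so that border runs through a continuum. The summed level of 10 other class II and dendritic cell markers had a median of 61155 and 63597 TPM in the class II-high cells against 26.3 and 80.1 TPM in the rest. The summed level of 9 late neutrophil markers had a median of 327044 TPM in the S100a8-high cells and 47.2 TPM in the rest of mouse 2. The 7 granule progenitor markers summed to medians of 5621 and 6472 TPM in the Mpo-high cells and 843 and 690 TPM in the rest. The rest were not a single kind of cell: the 11 erythroid markers summed to between 0 and 15766 TPM (median 1415) in mouse 1 and to between 2.38 and 2774 TPM (median 395) in mouse 2, while in the Mpo-high cells their medians were 12.3 and 1.82 TPM. The part of erythroid RNA in any comparison with the rest was not tested. The 6 B cell markers had a median of 0 in the rest of both mice, with 5 of 6 at 0 in every one of those cells. Of the 8 T and NK cell markers in the table, Nkg7 carried most of the signal, with medians of 1657 and 1318 TPM in the rest and 2159 and 1442 TPM in the Mpo-high cells, while 3 and 4 of the 8 were at 0 throughout the rest of mouse 1 and of mouse 2.

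The transcript of the bead antigen, Kit, was detected (at least 1 TPM) in 40 of 48 cells of mouse 1 and 31 of 48 of mouse 2, but in only 2 of the 8 S100a8-high cells, where it peaked at 14.4 TPM. Dnmt3a was detected in 19 and 17 cells of 48, and without a control genotype that level checks nothing about the deletion. The number of genes detected differed with state, from a median of 2617 in the S100a8-high cells to 4463 in the Mpo-high cells of mouse 1, and its Spearman correlation with single glycolytic genes ran from 0.01 to 0.58 over the cells of mouse 1 and from 0.16 to 0.62 over those of mouse 2. The sum is fixed and read depth is unknown, so fewer transcripts of a gene and more of all others cannot be told apart.

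Starts of 4 genes are shown first, because their transcripts carry the main patterns below: Pfkl and Pfkp, phosphofructokinase genes whose shares differed between cell states, and Gpi1 and Pkm, the pair that varied together most steadily. Each runs from 250 bases before to 50 after a RefSeq transcript start, on GRCm38.p6, written 5' to 3' on the gene's own strand. Capitals mark GCGTG or ACGTG, the core letters bound by hypoxia-inducible factors, on either strand. Pfkl lies at chr10:78009758-78010057 on the minus strand, Pfkp at chr13:6648722-6649021 on the minus strand, Gpi1 at chr7:34230287-34230586 on the minus strand and Pkm (its first listed start) at chr9:59656326-59656625 on the plus strand.
Pfkl: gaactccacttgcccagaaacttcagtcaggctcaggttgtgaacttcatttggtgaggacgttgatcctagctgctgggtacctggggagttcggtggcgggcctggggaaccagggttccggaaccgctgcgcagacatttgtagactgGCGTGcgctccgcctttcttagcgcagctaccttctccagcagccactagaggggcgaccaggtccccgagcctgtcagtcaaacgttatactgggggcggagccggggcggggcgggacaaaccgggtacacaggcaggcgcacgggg
Pfkp: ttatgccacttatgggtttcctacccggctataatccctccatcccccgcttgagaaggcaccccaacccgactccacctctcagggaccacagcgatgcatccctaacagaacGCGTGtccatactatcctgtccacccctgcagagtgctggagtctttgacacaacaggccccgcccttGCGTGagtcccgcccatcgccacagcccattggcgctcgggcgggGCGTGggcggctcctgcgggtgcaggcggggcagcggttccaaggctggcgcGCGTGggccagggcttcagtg
Gpi1: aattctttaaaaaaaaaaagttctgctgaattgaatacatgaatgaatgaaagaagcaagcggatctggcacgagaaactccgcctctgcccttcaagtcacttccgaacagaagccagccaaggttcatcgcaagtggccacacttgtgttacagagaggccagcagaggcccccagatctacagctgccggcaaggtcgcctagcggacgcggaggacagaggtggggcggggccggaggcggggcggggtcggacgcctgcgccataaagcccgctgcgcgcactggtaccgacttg
Pkm: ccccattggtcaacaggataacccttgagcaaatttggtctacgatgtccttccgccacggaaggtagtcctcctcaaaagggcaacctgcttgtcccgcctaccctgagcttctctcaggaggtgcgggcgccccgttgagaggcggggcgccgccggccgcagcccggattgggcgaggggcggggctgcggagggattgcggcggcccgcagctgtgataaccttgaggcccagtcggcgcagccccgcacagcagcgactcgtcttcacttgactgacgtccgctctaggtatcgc

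The Pfkl window held 1 such core and the Pfkp window 4, while the Gpi1 window and this Pkm window held 0. Across all 15 RefSeq starts of the 10 genes, 11 (73.3%) held ACGTG or GCGTG on either strand, against 43.8% of 32851 mouse promoter windows of the same length. Those 11 starts belonged to 8 of the 10 genes, all but Gpi1 and Tpi1. The E-box CACGTG, which contains ACGTG and is the site known for Myc, was in none of the 10 genes' windows and in 7.15% of all windows. The GC box GGGCGG was in at least 1 window of 9 of the 10 genes, Gapdh being the exception. It was in 35.7% of all windows, a share per window that is unlike a count per gene over 1 to 3 starts. Starts 2 and 3 of Aldoa overlap, as do those of Eno1, so windows of 1 gene are not separate. These matches describe letters only, and no binding was measured.

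Across all 96 cells the genes spanned a wide range of levels. Gapdh, which oxidises glyceraldehyde 3-phosphate, was highest, with a mean of 2041 TPM (SD 1301 over cells). Aldoa, which splits fructose 1,6-bisphosphate, averaged 1211 TPM (SD 900), and Eno1, which makes phosphoenolpyruvate, 899 TPM (SD 824). Pkm, the pyruvate kinase of the last step, averaged 717 TPM. Pgk1, the first ATP-making step, and Gpi1, which turns glucose 6-phosphate into fructose 6-phosphate, followed at 475 and 462 TPM. Tpi1, which interconverts the triose phosphates, and Pgam1, which moves the phosphate of phosphoglycerate, stood at 273 and 243 TPM. The genes of the committing steps were lowest, with Hk2 (first phosphorylation of glucose) at 57.02 TPM and Pfkl (liver-type phosphofructokinase) at 37.04 TPM. On GRCm38 the protein-coding genes of the upper pathway, with their strands, are Hk2 (chr6:82725025-82774454, minus), Gpi1 (chr7:34201330-34230336, minus), Pfkl (chr10:77986947-78010083, minus) and Aldoa (chr7:126795234-126800751, minus). Those of the lower pathway are Tpi1 (chr6:124810586-124814296, minus), Gapdh (chr6:125161715-125166467, minus), Pgk1 (chrX:106187100-106203699, plus), Pgam1 (chr19:41911923-41918660, plus), Eno1 (chr4:150236721-150248879, plus) and Pkm (chr9:59656368-59679375, plus). No pair of neighbours in this order differed by more than the SD of their difference over cells, on the log2(TPM + 1) scale. Gapdh was detected in 96 of 96 cells, Aldoa and Gpi1 in 95 each, Hk2 in 54 and Pfkl in 31. Between 5 and 10 of the genes were detected in a cell, and all 10 in 20 cells.

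Several of the genes have near-identical copies in the genome, so their levels are uncertain where the counting could split reads. Of the 50-base windows of its transcripts, Gapdh shared 82.5% with other annotated genes, Eno1 72.2% (70.5% with Eno1b alone), Pgk1 67.96%, Pgam1 41.5%, Pkm 34.4%, Gpi1 19.3%, Aldoa 13.5% and Tpi1 7.51%. Pfkl shared 0.0543% and Hk2 0%. For the enolase copies, in mouse 1 25 cells had Eno1 alone, 6 had Eno1b alone and 17 had both, and in mouse 2 the numbers were 15, 9 and 23. Whether the Eno1b values come from Eno1 reads was not tested.

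**Figure D1:**
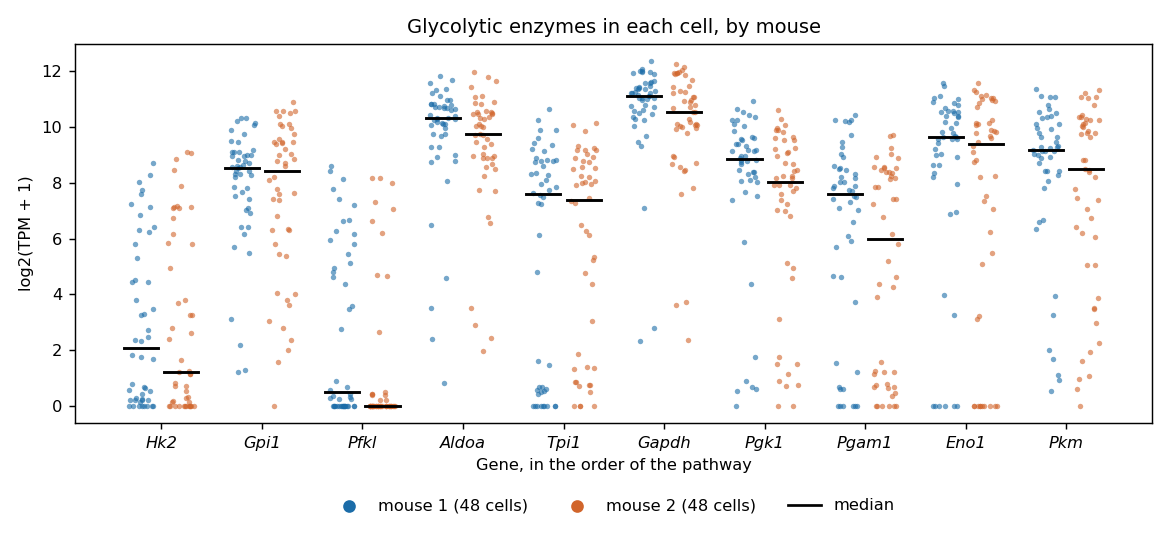
Level of the 10 glycolytic genes in each of 96 cells, as log2(TPM + 1), by mouse (48 cells each); each point is a cell and bars are medians. Gapdh and Aldoa are high in nearly every cell, while Hk2, Pfkl, Tpi1 and Pgam1 have many cells at or near 0.

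By mean log2 level, 8 of the 10 genes were lower in mouse 2 than in mouse 1, and 2, Hk2 and Tpi1, were higher. Of all genes with a mean of at least 1 TPM, 67.4% were lower, and of those with at least 100 TPM, 79.8%. Hk2 had a median of 3.25 TPM in mouse 1 (0 to 415) and 1.34 TPM in mouse 2 (0 to 547), and its mean log2 level differed by 0.03. Gpi1 had medians of 372 TPM (1.30 to 1277) and 344 TPM (0 to 1908). Pfkl had medians of 0.43 TPM (0 to 385) and 0 TPM (0 to 290). The ranges overlapped throughout for all 3. Aldoa had medians of 1262 TPM (0.78 to 3626) and 851 TPM (2.96 to 4049). Gapdh had medians of 2220 TPM (3.96 to 5242) and 1486 TPM (4.11 to 4896). Gapdh was detected in every cell of both mice, and Aldoa in 47 of 48 and 48 of 48. Pgk1 had medians of 459 and 264 TPM, Pgam1 of 194 and 62.4 TPM, and Eno1 of 801 and 675 TPM. Tpi1, higher in mouse 2 by mean log2 level, was lower there by median (192 and 168 TPM) and by mean TPM (290 and 256). Pkm had medians of 571 TPM (0.46 to 2619) and 357 TPM (0 to 2545).

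As a difference of mean log2(TPM + 1), mouse 2 minus mouse 1, the values ran from -1.30 for Pfkl to 0.34 for Tpi1, with a median of -0.75. Pfkl, Pgam1 (-1.25), Pgk1 (-1.05) and Eno1 (-1.04) were lower by 1 or more. Among all 11015 genes with a mean of at least 1 TPM, 11.6% were lower by that much, and among the 1497 with a mean of at least 100 TPM, 35.2%. The median of those abundant genes was -0.70, that of 76 nuclear oxidative phosphorylation genes -0.74 and that of 76 cytosolic ribosomal protein genes -0.76, so 4 of 10 is near the share among abundant genes. The median of the 10 was -0.34 with the number of detected genes removed (abundant genes -0.36), -0.02 in the RPKM table and -1.13 among the cells of no state. Eno1 and Pgk1 lay close enough to 1 that leaving out any 1 of 32 cells for Eno1, or of 15 for Pgk1, took the difference below it. All differences were smaller than the SD over cells within a mouse, which was 1.93 or more for every gene. Mouse 2 held the 8 S100a8-high cells and 19 rather than 14 class II-high cells, and the S100a8-high cells' 20 most abundant genes took a median of 62.3% of TPM.

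Within each mouse, the summed level of the genes was compared between cell states. The 10 genes together held a median of 0.882% of TPM in the Mpo-high cells of mouse 1 and 0.912% in those of mouse 2. In the S100a8-high cells the median was 0.872%. In the rest it was 0.632% and 0.555%, and in the class II-high cells 0.489% and 0.367%. The ranges overlapped in mouse 1. In mouse 2, the highest class II-high cell, at 0.585%, lay below the medians of the Mpo-high and S100a8-high cells.

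**Figure D2:**
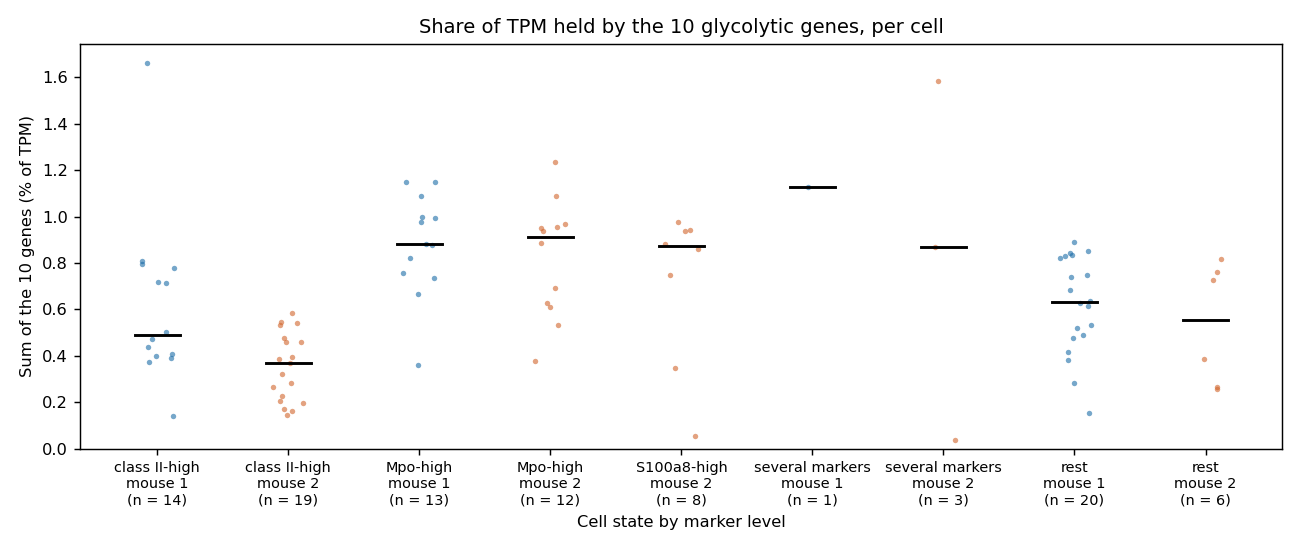
Summed level of the 10 glycolytic genes as a percentage of each cell's TPM, by state and mouse; points are cells and bars medians. Medians are 0.882% and 0.912% in Mpo-high cells and 0.489% and 0.367% in class II-high cells.

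In Mpo-high cells, which carry the markers of granule-forming myeloid progenitors, all 10 glycolytic genes had a higher mean log2 level than in the rest of the same mouse, in both mice. By mean TPM the same held for every gene but Tpi1. The upper pathway contributed Hk2, Gpi1 and Pfkl. Pfkl had a median of 42.96 TPM (0 to 278) in the Mpo-high cells of mouse 1 against 0.44 TPM (0 to 385) in the rest, and of 49.03 TPM (0 to 290) against 0 TPM (0 to 0.42) in mouse 2. It was detected in 10 of 13 and 7 of 12 Mpo-high cells, but in 8 of 20 and 0 of 6 of the rest. A count of 0 in 6 cells allows a share up to 45.9% (95% Clopper-Pearson, counting error only). Its mean log2 level differed by 2.06 and 3.98. Gpi1 had a median of 554 TPM (291 to 1277) in Mpo-high cells of mouse 1 and 344 TPM (4.2 to 1524) in mouse 2, against 328 and 182 TPM in the rest. It differed by 1.41 and 1.33, and without 1 cell of the mouse 2 rest, cell 69, by 0.57. Hk2 differed by 1.40 and 2.67.

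The lower pathway showed the widest gap at Pgam1. Its median was 238 TPM (0 to 1230) in the Mpo-high cells of mouse 1 against 96.7 TPM (0 to 1159) in the rest, and 374 TPM (0 to 831) against 12.3 TPM (0 to 330) in mouse 2. The differences were 2.47 and 4.53 on the log2 scale, and ranges overlapped in both mice. Pkm had medians of 1100 TPM (413 to 2172) against 501 TPM (0.46 to 1314) in mouse 1, and of 1054 TPM (10.1 to 2545) against 188 TPM (3.74 to 2098) in mouse 2. Its differences were 2.03 and 2.21. Pgk1 differed by 0.87 and 2.27. The abundant Gapdh (0.75 and 0.50) and Aldoa (0.44 and 0.40) stood less far above the rest, and without cell 14, a rest cell, Aldoa in mouse 1 was at -0.02. Tpi1 (0.52 and 0.36) and Eno1 (1.08 and 0.72) were also higher in mean log2 level. The mean TPM of Tpi1 was lower in Mpo-high cells, at 294 against 318 in mouse 1 and 323 against 439 in mouse 2. Its medians were 320 against 215 TPM in mouse 1 and 331 against 409 TPM in mouse 2. In mouse 2 the direction of each gene's log2 difference turned on a single cell of the rest: without cell 88 Tpi1 differed by -0.78, and without cell 69 Eno1 differed by -0.83. Leaving out any 1 of rest cells 7, 19, 26 and 27, all with Eno1 at 0, brought its difference in mouse 1 to 0.67, and leaving out any 1 of 7 Mpo-high cells brought it to between 0.91 and 0.98. In mouse 2, Pgk1 was at 1.18 without cell 52 and Pkm at 1.35 without cell 69.

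Counted together, 6 of the 10 genes were higher by 1 or more in each mouse. Of all genes with a mean of at least 1 TPM, 21.8% were so in mouse 1 and 21.3% in mouse 2, and of those with at least 100 TPM, 35.5% and 33.9%. The median of the 10 was 1.24 and 1.77, against 0.48 and 0.41 for the abundant genes. The oxidative phosphorylation genes had medians of 0.49 and 0.46, and the ribosomal protein genes -0.20 and 0.21. Mpo-high cells also had more detected genes (medians 4463 and 4041) than the rest in mouse 1 (3588), while in mouse 2 the rest had more (4252). With the number of detected genes removed by regression, the median of the 10 in mouse 1 was 0.56, with 8 of 10 higher, and in mouse 2 it was 1.34, with 9 of 10 higher. The abundant genes then had medians of -0.09 in mouse 1 and 0.07 in mouse 2. In the RPKM table the medians of the 10 were 0.22, with 7 higher, and 0.21, with 8 higher. The share of all genes higher was not computed in either setting. Both comparisons use the rest of the same mouse, 6 cells in mouse 2.

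The S100a8-high cells of mouse 2, with neutrophil granule genes at very high level, kept or exceeded most glycolytic transcripts while most other abundant genes were lower. Hk2 had a median of 57.3 TPM (0.11 to 352) against 0.185 TPM (0 to 55.6) in the 6 rest cells, a difference of 3.16. Pkm had a median of 1035 TPM (2.83 to 2164) against 188 TPM (3.74 to 2098), a difference of 2.58. Gpi1 had a median of 892 TPM (0 to 1908) against 182 TPM (5.86 to 695), a difference of 1.99. In all 3 the median of the S100a8-high cells was higher than that of the rest, but the ranges overlapped. Gpi1 was at 1.23 without cell 69 and 3.22 without cell 73. Pgam1 differed by 2.08, Eno1 by 1.20 (-0.34 without cell 69 and 2.48 without cell 73) and Pfkl by 1.00. Pfkl was detected in only 2 of 8 S100a8-high cells, and without cell 90 its difference was 0.22. Aldoa was at 0.28, Pgk1 at -0.18 (0.70 without cell 73 and -1.27 without cell 52), Gapdh was at -0.98 (-0.08 without cell 73), and Tpi1 was far lower at -3.61. Tpi1 had a median of 23.1 TPM (0 to 438) against 409 TPM (2.65 to 1079).

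Here 7 of the 10 genes were higher, 6 of them by 1 or more, while 1 was lower by 1 or more. Of all genes with a mean of at least 1 TPM, 9.51% were higher by 1 or more and 39.3% lower. Of those with at least 100 TPM, 12.9% were higher and 64.8% lower. The median of the 10 was 1.10, against -2.03 for the abundant genes, -2.01 for oxidative phosphorylation and -4.09 for the ribosomal protein genes, of which 76 of 76 were lower by 1 or more. With the 20 most abundant genes of each cell removed before scaling, the median of abundant genes was -1.44 and that of the 10 was 1.76, with 9 of 10 higher. With the number of detected genes removed, the median of the 10 was 2.68, with 9 higher, and that of the abundant genes -0.77. In the RPKM table the median of the 10 was 0.39, with 7 higher. The share of all genes higher was not computed in these settings. In cell 73, Gpi1, Pfkl, Pgk1, Pgam1 and Eno1 were at 0, Pkm at 2.83 TPM and Gapdh at 11.2 TPM. Without it the median of the 10 was 1.82. Mki67 reached 10 TPM in 6 of these 8 and in 2 of the 6 rest cells, so state and Mki67 level were partly mixed. The summed share had medians of 0.872% in the 6 Mki67-high and 0.514% in the 2 Mki67-low S100a8-high cells. In the rest it was 0.555% (2 cells) and 0.513% (4 cells), and the part of Mki67 level was not tested. One S100a8-high cell carried class II and dendritic markers summing to 9596 TPM; its part was not tested.

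In class II-high cells the 10 genes did not move as 1 group. Tpi1 was the lowest against the rest in both mice: its median was 0.50 TPM (0 to 1616) against 215 TPM (0 to 1212) in mouse 1, and 36.4 TPM (0 to 1130) against 409 TPM (2.65 to 1079) in mouse 2. Its differences were -2.79 and -3.05. Hk2 was higher in both, by 0.71 and 1.17. Gapdh was lower in both, by -0.89 and -2.08, with a median of 499 TPM (4.11 to 2766) in mouse 2 against 1790 TPM (878 to 3862). Pkm was at -0.72 and -0.46, but its direction in mouse 2 turned on single cells of the rest: it was 0.44 without cell 94, 0.24 without cell 54 and -1.32 without cell 69. The others differed between the mice in direction or size: Eno1 was 0.83 and -1.98, Aldoa 0.01 and -1.62, Gpi1 -1.50 and 0.17, Pfkl -1.53 and 0.16, Pgk1 -1.55 and 0.02 and Pgam1 0.45 and -0.26. Several of these rested on a single cell of the rest. In mouse 2, Pgk1 was at -1.07 without cell 52, Gpi1 at -0.59 without cell 69, Eno1 at -3.53 without cell 69 and Pgam1 at 0.72 without cell 88. Hk2 was at 2.08 without cell 94 and, leaving out class II-high cell 57, at 0.80. In mouse 1, Aldoa was at -0.45 without cell 14.

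Lower by 1 or more were 4 of 10 genes in each mouse, and the background shares were of like size. In mouse 1, 30.2% of genes with a mean of at least 1 TPM and 49.8% of those with at least 100 TPM were that much lower, and in mouse 2, 37.8% and 54.6%. The medians of the 10 were -0.80 and -0.36, against -0.99 and -1.27 for the abundant genes. Class II-high cells had fewer detected genes (medians 2922 and 2636), and erythroid markers, high in part of the rest, had medians of 1.87 and 0 TPM in them. When the class II-high cells of mouse 2 were set against all other cells below the marker threshold, 10 of 10 genes were lower, with a median of -2.198. The other side then held Mpo-high and S100a8-high cells too, and the class II-high side held cell 68, which also passed the Mpo marker. The share of all genes lower in that setting was not computed. Against the rest with the number of detected genes removed, the median turned positive, as given below.

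**Figure D3:**
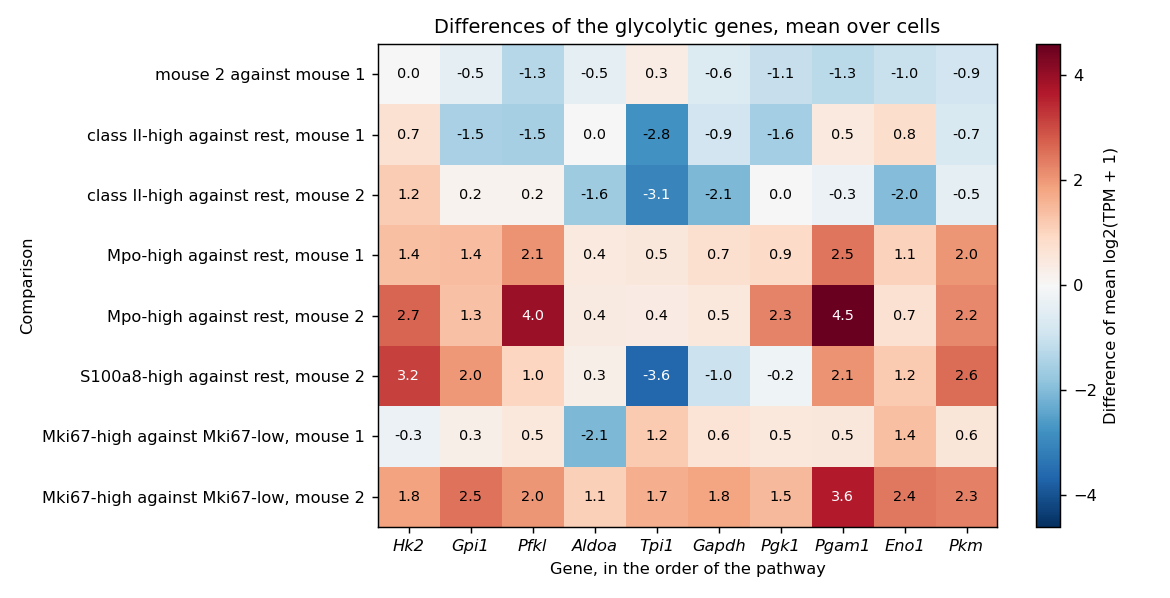
Difference of mean log2(TPM + 1) for each of the 10 genes (columns, in pathway order) in the comparison between mice and 7 comparisons within a mouse (rows). Red is higher in the group named first and blue lower. On this log2 scale all 10 genes are higher in Mpo-high cells of both mice, and Tpi1 is lowest in class II-high and S100a8-high cells.

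The mix of isozymes at the committing steps differed between the states. Pfkp, the platelet-type phosphofructokinase, held 96.8% and 98.3% of summed phosphofructokinase TPM in class II-high cells, where Pfkl held 3.22% and 0.308%. Pfkp was the highest of the phosphofructokinase genes in 11 of 11 and 16 of 16 class II-high cells with any. Its median there was 274 TPM (0 to 944) in mouse 1 and 146.5 TPM (0 to 2805) in mouse 2, against 0.28 TPM (0 to 223) and 0.59 TPM (0 to 195) in the rest. That made differences of 5.37 and 3.87. By share, Pfkp also led in the rest of mouse 2, holding 82.6% and being the highest in 3 of 3 cells with any. In the rest of mouse 1 it held 18.3% and was the highest in 4 of 12. In Mpo-high cells Pfkl held 33.5% and 81.1% and was the highest in 7 of 13 and 6 of 8 cells with any. The 8 S100a8-high cells had Pfkp below 1 TPM in every cell (0 of 8 detected). The class II-high and Mpo-high cells therefore had opposite leading genes in mouse 2, while the Mpo-high cells of mouse 1 had both, with Pfkp at 63.1%.

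At the hexokinase step, Hk2 held 77.6% and 67.5% of hexokinase TPM in class II-high cells. Hk3, a hexokinase of myeloid cells, held 83.2% and 70.2% in Mpo-high cells and 68.3% in S100a8-high cells, where Hk2 held 25.8%. Counted by cell, Hk3 was the highest hexokinase in 9 of 13 and 7 of 12 Mpo-high cells, while in the 7 S100a8-high cells with any, Hk2 led in 4 and Hk3 in 3. Hk3 also held the largest share in the rest, 55.8% and 72.4%. Hk3 had a median of 118 TPM (0.22 to 1326) in Mpo-high cells of mouse 1 and 82 TPM (0 to 789) in those of mouse 2. In class II-high cells its medians were 0 TPM (0 to 57.8) and 0.34 TPM (0 to 141). Hk2 was detected in 8 of 14 and 9 of 19 class II-high cells, in 10 of 13 and 9 of 12 Mpo-high cells and in 6 of 8 S100a8-high cells. At the aldolase step no such swing was seen, Aldoa holding between 85.5% and 100% in every state of either mouse, the rest included. A share here is a ratio of levels, and cells of 1 mouse are not independent animals.

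**Figure D4:**
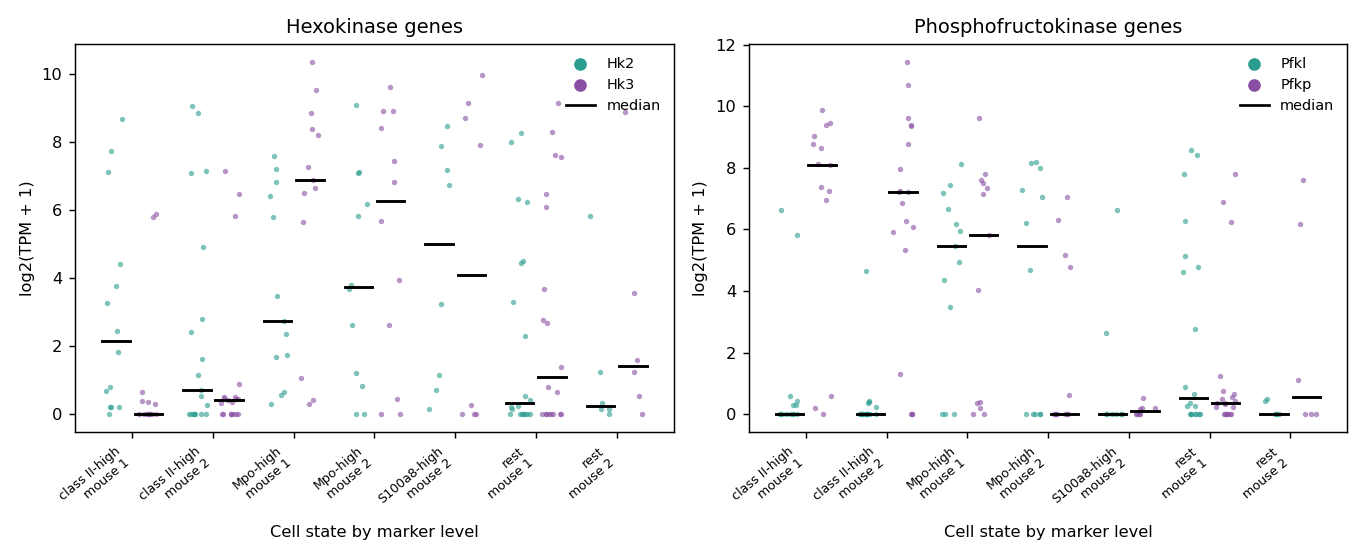
Levels of Hk2 and Hk3 (left) and of Pfkl and Pfkp (right) in each cell, as log2(TPM + 1), by state and mouse; points are cells and bars medians. Pfkp is high in most class II-high cells of both mice and below 1 TPM in all 8 S100a8-high cells, and Hk3 has medians of 118 and 82 TPM in Mpo-high cells against 0 and 0.34 TPM in class II-high cells.

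Genes around the pathway were read from lists of isozymes, transport, flux control, pyruvate entry and the pentose phosphate shunt. Adpgk, an ADP-dependent glucokinase, was detected in 8 of 8 S100a8-high cells with a median of 349 TPM (lowest 162 TPM), while its highest value in the 6 rest cells was 30.4 TPM. The difference was 7.51, and how many of all genes also did not overlap between these cells was not computed. Adpgk is 1 of 10 other isozyme genes with a mean of at least 1 TPM. Of these, 3 were higher and 6 lower in S100a8-high cells, 2 and 4 of them by 1 or more. G6pdx, the entry enzyme of the pentose phosphate pathway, was higher in Mpo-high cells by 3.70 and 4.48 and in S100a8-high cells by 5.33. Its median was 94.5 and 70.98 TPM in Mpo-high and 106 TPM in S100a8-high cells, against 0 TPM in the rest of either mouse. Pgd, the next NADPH-making step, was higher in the same comparisons by 2.42, 1.41 and 3.29. Of the 7 pentose phosphate genes, 6 were higher in Mpo-high cells of each mouse (4 and 3 by 1 or more) and 5 in S100a8-high cells (4 by 1 or more). Of all genes with a mean of at least 1 TPM, 60.5% and 54.8% were higher in the Mpo-high cells and 27.2% in the S100a8-high cells, and of those with at least 100 TPM, 67.7%, 63.5% and 21.4%. The counts of the lists that follow stand against the same shares.

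Ldha, which makes lactate, differed by 1.04 and 2.69 in Mpo-high, 2.75 in S100a8-high and 0.21 and 2.63 in class II-high cells. The values of mouse 2 all use the same 6 rest cells. Among these, Ldha was at 0.87 TPM in cell 88 and 2.67 TPM in cell 69, and between 72.9 and 1326 TPM in the others. Of the 9 transport genes, 8 and 4 were higher in Mpo-high cells and 3 in S100a8-high cells. Slc2a3, a glucose carrier, was lower than in the rest in Mpo-high cells (-1.11 and -2.03) and class II-high cells (-3.12 and -2.50), and Slc2a6, a carrier of the same family, was higher in Mpo-high cells by 1.68 and 1.78. Myc, a transcription factor that drives glycolytic genes in many cells, differed by 3.63 and 1.03 in Mpo-high cells but by -5.50 in S100a8-high cells and by -3.07 and -3.82 in class II-high cells. Hif1a, the oxygen-regulated factor, differed by less than 1 in each state comparison. Of the 8 pyruvate entry genes, 7 and 6 were higher in Mpo-high cells, 2 and 5 of them by 1 or more, and 3 in S100a8-high cells. Of the 15 flux control genes with a mean of at least 1 TPM, 9 were higher in Mpo-high cells of each mouse and 6 in S100a8-high cells, which for the Mpo-high cells is near the share of all genes.

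In class II-high cells, most other genes around the pathway that differed in the same direction in both mice by 1 or more were lower, as in the background: 3324 and 4161 of all 11015 genes with a mean of at least 1 TPM were lower by 1 or more, and 938 and 911 higher. They included Pdk1 (-1.08 and -2.72), Pdk2 (-1.97 and -1.29) and Pdk3 (-1.99 and -2.46), kinases that switch off pyruvate dehydrogenase, and Egln3 (-2.02 and -2.09), an oxygen-sensing hydroxylase. Dld, a shared subunit of pyruvate dehydrogenase, was at -3.12 and -3.56. Of the pentose phosphate pathway, Pgls (-2.14 and -1.56), Pgd (-1.88 and -2.19), Rpia (-1.26 and -1.22) and Tkt (-1.87 and -1.98) were lower. Of the gluconeogenic genes, G6pc3 (-1.02 and -3.62), a glucose 6-phosphatase, and Pck2 (-1.54 and -3.32) were lower, and G6pc3 was higher in Mpo-high cells by 2.96 and 1.01. Pfkp was the exception, being higher. Taldo1, the transaldolase, averaged 895 TPM over all cells and was 1.22 higher in mouse 2 than in mouse 1. Mpc1, a mitochondrial pyruvate carrier, averaged 305 TPM, and the dehydrogenase subunits Pdhb and Pdha1 184 and 115 TPM. Pdhb was higher in Mpo-high cells by 1.76 and 1.24, and Pdha1 was at -1.65 in mouse 2 against mouse 1.

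Mki67 encodes a protein of dividing cells, and in each mouse 16 of the 48 cells reached 10 TPM. The lowest value inside was 12.5 TPM and the highest outside 3.47 TPM, and 12 of 12 proliferation genes were higher by 1 or more in Mki67-high cells of both mice. In mouse 2, all 10 glycolytic genes were higher in Mki67-high cells, each by 1 or more. Gapdh had a median of 2410 TPM (969 to 4896) against 1056 TPM (4.11 to 4024), a difference of 1.80. Pgam1 had a median of 255 TPM (0.67 to 831) against 1.69 TPM (0 to 606), a difference of 3.64. Gpi1 had a median of 561 TPM (192 to 1536) against 96.2 TPM (0 to 1908), a difference of 2.49. The medians of these 3 were higher in the Mki67-high cells, and the groups overlapped. Medians of other genes did not differ that way: Aldoa had 846 TPM in Mki67-high and 927 TPM in Mki67-low cells, Pgk1 264 and 263 TPM, and Pfkl 0 in both, while the means of their log2 levels were all higher in Mki67-high cells. Aldoa, at 1.10, was at 0.88 without cell 68. In mouse 1, 8 of 10 had a higher mean log2 level, but only Eno1 (1.39) and Tpi1 (1.21, or 0.98 without cell 20) by 1 or more. Aldoa was lower there by -2.06: its median was 863 TPM (0.78 to 1830) in Mki67-high and 1613 TPM (23.04 to 3626) in Mki67-low cells. Mean TPM in mouse 1 was lower in Mki67-high cells for Hk2, Gpi1, Aldoa, Tpi1 and Pgk1, and higher for the others. For Tpi1 it was 234 against 318 TPM and for Gpi1 394 against 437 TPM. The Eno1 median was 783 against 811 TPM. Spearman correlations with Mki67 over the cells of mouse 1 ran from -0.15 to 0.08, apart from Aldoa (-0.45). In mouse 2 they ran from 0.16 to 0.56.

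Genes around the pathway that were higher by 1 or more in Mki67-high cells of both mice were Bsg (3.59 and 2.32), the chaperone of the lactate carriers, Slc16a1 (2.59 and 1.08), a lactate carrier, Dld (2.01 and 2.39), Pdhb (1.05 and 1.46), Pdhx (1.85 and 1.11) and Myc (1.52 and 1.21). Of the 9 transport genes, 7 and 8 were higher in Mki67-high cells, and of the 8 pyruvate entry genes 6 and 7, of which 4 and 6 were higher by 1 or more. Of all genes with a mean of at least 1 TPM, 64.5% and 67.97% were higher there, and of those with at least 100 TPM, 71.5% and 70.5%. Among the proliferation genes, Top2a differed by 6.14 and 5.29, Rrm2 by 5.16 and 6.22 and Pcna by 3.17 and 2.92.

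Among all genes with a mean of at least 1 TPM, 23.3% were higher by 1 or more in Mki67-high cells of mouse 1 and 27.1% in mouse 2. Among those with at least 100 TPM the shares were 39.5% and 45.8%. Genes lower by 1 or more in mouse 1 made up 3.77% and 9.49%. The median of the 10 was 0.51 in mouse 1 and 1.94 in mouse 2, against 0.65 and 0.86 for the abundant genes. Mki67-high cells had more detected genes (medians 4273 and 3895) than Mki67-low cells (3344 and 2895). They also differed in state: 0 of 19 class II-high cells of mouse 2 and 2 of 14 of mouse 1 were Mki67-high, against 7 of 12 and 7 of 13 Mpo-high cells. With class II-high cells left out, the median was 1.09 in mouse 2 (9 of 10 higher) and 0.02 in mouse 1 (5 of 10 higher). With the number of detected genes removed by regression, it was 0.82 in mouse 2 (9 higher) and -0.999 in mouse 1 (1 higher). The abundant genes then had medians of -0.41 in mouse 2 and -0.11 in mouse 1. The share of all genes higher was not computed with class II-high cells left out or with detected genes removed. Within Mpo-high cells the summed share was 0.882% and 0.937% in Mki67-high against 0.926% and 0.887% in Mki67-low cells, and the ranges overlapped.

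**Figure D5:**
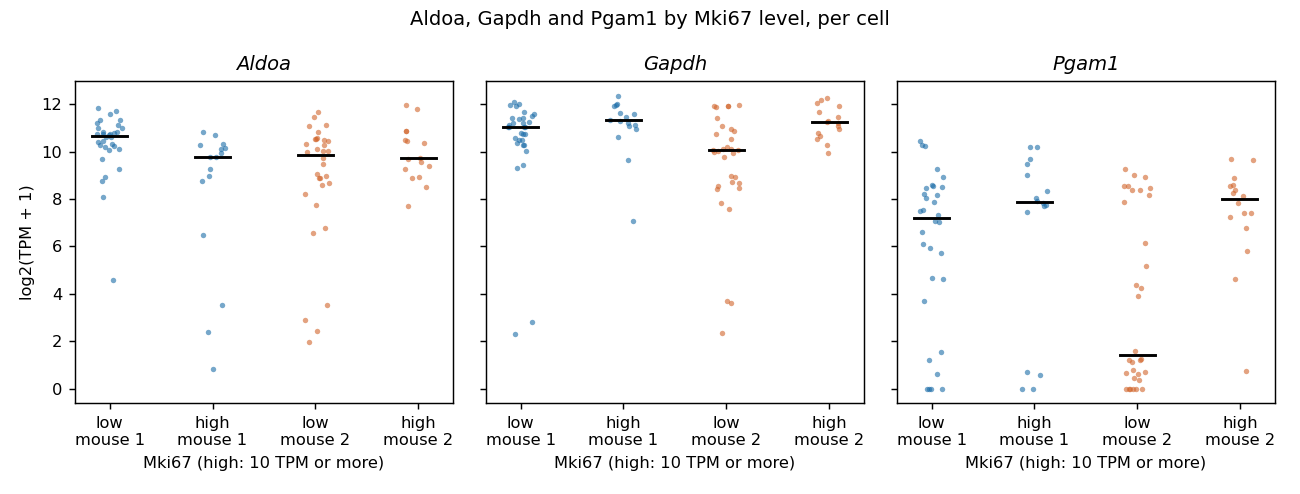
Level of Aldoa, Gapdh and Pgam1 in each cell, as log2(TPM + 1), by Mki67 level and mouse (16 Mki67-high and 32 Mki67-low cells in each); points are cells and bars medians. The Aldoa medians of mouse 1 are 863 TPM (high) and 1613 TPM (low), and Pgam1 has many Mki67-low cells near 0 in mouse 2.

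The genes varied together weakly from cell to cell. After the number of detected genes was removed, the mean Spearman correlation over the 45 pairs was 0.13 in mouse 1 and 0.15 in mouse 2, over 48 cells each, and 38 and 34 pairs were above 0. Without that step the means were 0.22 and 0.27. Pairs of other genes were not computed, so whether these values are particular to the 10 genes was not tested. Cells of a mouse share an animal and a column prefix, and these values are descriptions. The pairs that ranked best in both mice by the smaller value joined Gpi1 with Pkm (0.44 and 0.35) and Gpi1 with Aldoa (0.29 and 0.48). Candidates were 2051 genes detected in 24 or more cells of each mouse, from which the members and the genes of the pathway, marker and proliferation lists were then set aside. Of what was left, those whose level followed the mean log2 level of the 10 most closely in both mice, with detected genes removed, were Aprt (0.41 and 0.38), an adenine salvage enzyme, Prdx5 (0.35 and 0.45), a peroxiredoxin, Cotl1 (0.34 and 0.54), an actin-binding protein, Ppp1ca (0.34 and 0.40), a phosphatase subunit, and Pygl (0.40 and 0.33), the glycogen phosphorylase that feeds glucose units into the pathway. Snrpb (0.50 and 0.32), a splicing protein, Siva1 (0.32 and 0.43) and Uqcrc1 (0.47 and 0.31), a subunit of respiratory complex III, completed the leading 8.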

How the data were processed

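Messenger RNA was measured in 96 single cells of 2 mice, 48 each, grouped by the titles in the labels. The authors deposited 2 tables. One holds TPM per gene and cell and was made with RSEM, per the file name as deposited; the other holds RPKM per gene and cell, per the deposited file header. The submitters' processing notes name TopHat2, RSEM and Bowtie2 and the builds mm10 and mm9; versions and which build belongs to which table are not given in the sources used here. Neither table holds counts, so depth is unknown; TPM has the same sum in each cell. All values here are from the TPM table and the RPKM table was an alternative. Differences are between means of log2(TPM + 1) over cells; no test was made, since each side is 1 animal. The fold therefore understates differences of low genes. Detection was 1 TPM, a state 1000 TPM of its marker, Mki67-high 10 TPM, and a difference was counted from 1 on the log2 scale. Genes with a mean of at least 1 TPM, or at least 100 TPM, gave the background. The members, lists and thresholds were chosen with earlier results of these data known. Named genes were the 10 members, the 4 most abundant genes of each list or those differing by 1 or more in the same direction in both mice (printed in part), and the 8 genes in no list most like the mean of the members by the smaller of both mice's Spearman correlations, among genes detected in 24 or more cells of both mice. Hif1a was named after its values were seen. The proportion intervals are exact (Clopper-Pearson, 95%). The steps were tested on simulated data. Promoters came from RefSeq (GRCm38.p6), coordinates from the same build. Python 3.11.15, numpy 2.4.6, pandas 2.3.3, scipy 1.17.1 and matplotlib 3.10.9 were used. Alternatives were other thresholds, pseudocounts, scaling, removal of the detected-gene number, the RPKM table and each cell left out; no cell was left out of the main values except the 4 with several markers in state comparisons.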

Additional observations from a re-analysis of the deposited data

Results flagged for a closer look

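Of 20 sets (1 gene in 1 group of 6 or 8 cells) examined for a cell far from the others, 8 had one. The rule's chance rate of about 1 in 20 holds for normally distributed values. These levels hold many zeros and the sets share cells, so 8 of 20 cannot be set against that rate. Cell 73 of mouse 2, an S100a8-high cell with 2257 detected genes, stood far below the others for 4 genes. It had Gpi1 at 0 TPM where the others had 221 to 1908, Gapdh at 11.2 TPM where they had 969 to 4258, Eno1 at 0 TPM where they had 294 to 2582, and Pkm at 2.83 TPM where they had 450 to 2164. Cell 90 of the same group had Pfkl at 98.2 TPM, the others between 0 and 5.23. Among the 6 rest cells of mouse 2, cell 94 had Hk2 at 55.6 TPM with the others between 0 and 1.38. Cell 88 had Tpi1 at 2.65 TPM with the others between 152 and 1079. Cell 69 had Eno1 at 0 TPM with the others between 303 and 1097.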

How the results depend on the processing

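Each cell is 1 library and each mouse 1 animal, so none of these ranges measures variation between animals. Of 166 alternatives to a median, a count or the co-variation, 157 were counted as unchanged, and of 800 alternatives to a single gene 771 were. For medians and single genes this meant a move smaller than the SD over cells, and for the co-variation over pairs. For counts it meant a change within a fixed ratio. Such moves can be large: with detected genes removed, class II-high cells of mouse 1 went from -0.80 to 0.04 and from 6 to 4 genes lower, both counted as unchanged. Medians for class II-high cells of mouse 2 moved to 1.33 with the number of detected genes removed and to -2.198, with 10 genes lower, against all cells below the marker threshold. The share of all genes lower in that last setting was not computed. In the RPKM table, where most of these genes lie near 0, the median for Mpo-high cells of mouse 2 was 0.21 and that for Mki67-high cells of mouse 2 was 0.11. The number of genes higher in Mki67-high cells of mouse 1 was 1 with detected genes removed, 5 in RPKM, 2 at an Mki67 threshold of 100 TPM and 5 with class II-high cells left out. The shares of all genes higher in these settings were not computed. Medians of class II-high cells of mouse 1 turned to 0.04 with detected genes removed and 0.02 in RPKM, and that of Mki67-high cells of mouse 1 to -0.999 with detected genes removed and -0.70 at an Mki67 threshold of 100 TPM.

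Sign changes of single genes are listed only where the main difference was 1 or more, and those of smaller differences are left out. In RPKM the genes were Pgam1 between mice (0.10), Pfkl (0.086), Tpi1 (0.036) and Pgk1 (0.084) in class II-high cells of mouse 1, Aldoa (0.011) in those of mouse 2, Hk2 (-0.030), Pgam1 (-0.10) and Eno1 (-0.14) in Mpo-high cells of mouse 1, Tpi1 (-0.17) in Mki67-high cells of mouse 1, and Aldoa (-0.0043) and Pgk1 (-0.047) in those of mouse 2. With detected genes removed they were Pfkl (0.023) in class II-high cells of mouse 1 and Tpi1 in Mki67-high cells of mouse 1 (-1.22) and mouse 2 (-0.60). Others were Eno1 between mice in cells of no state (0.012), Hk2 in class II-high cells of mouse 2 (-1.02) and Pfkl in S100a8-high cells (-0.54) against all cells below the threshold, Eno1 in Mpo-high cells of mouse 1 at 500 TPM (-0.27), Tpi1 in Mki67-high cells of mouse 1 at 100 TPM (-1.56) and Aldoa in Mki67-high cells of mouse 2 without class II-high cells (-0.50). The cause was not tested for any of these.

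With each cell left out in turn, the median ran from -1.06 to 0.18 in class II-high cells of mouse 2, from 0.96 to 2.13 in Mpo-high cells of mouse 2, from 0.68 to 1.82 in S100a8-high cells and from 1.72 to 2.17 in Mki67-high cells of mouse 2. Removing the detected-gene number moved the median of the abundant genes from 0.86 to -0.41 in Mki67-high cells of mouse 2 and from -1.27 to 0.22 in class II-high cells of mouse 2. In mouse 1 it moved from 0.65 to -0.11 in Mki67-high cells and from -0.99 to -0.21 in class II-high cells. Without a filter on low values the median of all genes was 0 in each comparison. The sum of Eno1 and Eno1b, the background of genes at 100 TPM or more, and the values without cell 73 or without each cell were chosen after seeing the data.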

Other observations

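The 4 cells past more than 1 marker had summed glycolytic shares from 0.0371% to 1.58%. Cell 79 of mouse 2, with S100a8 and Mpo, held 1.58% of TPM in the 10 genes, with Gapdh at 4896 TPM and Aldoa at 4049 TPM. Cell 86 of mouse 2 held 0.870% and cell 13 of mouse 1 held 1.13%. Cell 68 of mouse 2, with H2-Aa and Mpo, held 0.0371%, the lowest of all 96 cells, with Gapdh at 346 TPM, Aldoa at 2.96 TPM and Ldha at 2.65 TPM, although 2511 genes were detected in it. In that cell Eno1 was listed at 0 while Eno1b stood at 218.5 TPM.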
